A study of Homo sapiens with 5 samples.

Results

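The 9 genes described here encode transcription factors of the intestine and of epithelia in general: the ETS factors ELF3 and EHF, the caudal homeobox factors CDX1 and CDX2, the nuclear receptor HNF4A, the zinc finger factor GATA6, the forkhead factors FOXA1 and FOXA2, and the HMG-box factor SOX9. They were taken by symbol from the 20030 symbols listed for each library, and each of the 9 was found once. RNA sequencing measured their transcripts after siRNA against SP1, SP3 or both in the epithelial colorectal cancer line HCT116. SP1 and SP3 are related zinc finger factors that recognise GC-rich promoter elements, and siRNA directs the breakdown of a matching transcript. The groups were HCT116 cells with control siRNA (2 libraries, control 1 and control 2), with SP1 knockdown (1 library), with SP3 knockdown (1 library) and with knockdown of both (1 library, called the double knockdown). All were cells of this 1 line, and no siRNA sequence, amount or time after transfection is stated in the sources used here.

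In the intestinal epithelium these factors act as a network. CDX1 and CDX2 set intestinal identity during development and maintain it in the adult, HNF4A switches on genes of absorptive enterocytes, and GATA6 acts in crypts and is needed for proliferation and for several secretory and absorptive programmes. FOXA1 and FOXA2 open chromatin for other factors and take part in goblet and enteroendocrine differentiation, while SOX9 is found in stem and Paneth cells at the crypt base and responds to WNT signalling. ELF3 and EHF, also called ESE-1 and ESE-3, are ETS factors restricted to epithelia, and ELF3 promotes terminal differentiation of the gut lining.

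Levels are given as FPKM, which scales the fragments of a gene by a length and by the library's counted reads. The smallest lengths that fit the values were 8050 bases for EHF and 4157 for FOXA1, where the longest GENCODE 29 transcripts have 3150 and 2862 bases, so levels and places between genes depend on the lengths the authors used, and comparisons of 1 gene between libraries do not. Counted reads ranged from 14678068 to 15970519 over the libraries, with 10652 to 11229 genes at 1 FPKM or more. SP1 stood at 42.9% of the control level with the SP1 siRNA and at 43.6% in the double knockdown, and SP3 at 41.3% with the SP3 siRNA and at 50.7% in the double knockdown. SP1 was also at 74.5% of control with the SP3 siRNA. Differences were tested with limma on log2(FPKM + 1), and a Benjamini-Hochberg adjusted p under 0.05 over 11725 genes was the threshold. The spread came from the 2 controls alone, so each knockdown lacks a replicate. The labels do not tell whether the controls came from separate cultures, so that the p-values rest on a spread that may be technical. An additive model, in which the double knockdown serves as a further library for each siRNA, is given beside each call that it changes. This model assumes no interaction, that is, a double knockdown difference equal to the sum of both single differences. Where a gene departs from that, its spread widens and its terms shift. Epithelial markers fixed for the line were high for EPCAM (93.7 to 119 FPKM), CDH1, KRT8 and KRT18, but the intestinal markers VIL1, CDH17 and GPA33 reached at most 0.109 FPKM in any library.

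Leukocyte markers other than CD68 were lower in the 3 knockdown libraries than in the controls. Without CD68, which was at 56.2 to 94.1 FPKM in all libraries and was set aside after its values were seen, the other 8 leukocyte markers summed to 18.3 and 19.1 FPKM in the controls and to 0.152 to 0.595 FPKM in the knockdown libraries. With CD68 the 9 markers summed to 77.8 and 80.3 FPKM in the controls and to 56.8 to 94.2 FPKM in the knockdown libraries, 5 of them reaching 1 FPKM and none at 0 throughout. Fibroblast markers summed to 4.52 to 9.10 FPKM, nearly all of it COL1A1, with LUM at 0, and endothelial markers to at most 0.469 FPKM. The part of the leukocyte signal in the differences of the members, CDX2 and ELF3 among them, was not tested. Where the leukocyte signal in the controls of this epithelial line came from was not tested either. Fewer cells of a type and less RNA per cell also cannot be told apart in such bulk libraries.

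ELF3 was the most abundant of the 9 factors. It stood at 266.9 FPKM in both controls, at 246 FPKM with the SP1 siRNA, at 90.9 FPKM with the SP3 siRNA and at 153 FPKM in the double knockdown. SOX9 followed, at 81.4 and 83.9 FPKM in the controls, 103 FPKM with the SP1 siRNA, 74.1 FPKM with the SP3 siRNA and 71.6 FPKM in the double knockdown. EHF stood at 8.68 and 7.76 FPKM in the controls, 10.01 FPKM with the SP1 siRNA, 7.12 FPKM with the SP3 siRNA and 6.87 FPKM in the double knockdown. These 3 were the members above 5 FPKM in every library, and they kept this order in all 5. ELF3 ranked 188 and 189 among 20026 genes in the controls, 620 with the SP3 siRNA and 354 in the double knockdown.

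GATA6 lay between 1.92 FPKM, with the SP3 siRNA, and 3.23 FPKM, with the SP1 siRNA, and was above 1 FPKM in every library. CDX2 stood at 1.15 and 1.13 FPKM in the controls and under 1 FPKM in each knockdown library. HNF4A exceeded 1 FPKM only in the SP3 siRNA library, at 1.48 FPKM. CDX2 and HNF4A thus passed the low-value filter of the test, at least 1 FPKM in at least 1 library, through the controls alone and through the SP3 siRNA alone, and their differences are to be read with that in mind. Their order also changed between libraries, with CDX2 above HNF4A in both controls and HNF4A above CDX2 in the 3 knockdown libraries.

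CDX1, FOXA1 and FOXA2 stayed under 1 FPKM in all 5 libraries, as did 41.5% of all genes. FOXA1 ranged from 0.156 to 0.211 FPKM, or 10 to 14 reads. CDX1 and FOXA2 were listed at 0 in every library, as were 14.5% of all genes, while 10 common housekeeping genes were all above 0, the lowest at 5.19 FPKM. At this depth a count of 0 allows up to 3 reads, which over the longest annotated transcript of each gene (GENCODE 29) is 0.107 to 0.116 FPKM for CDX1 and 0.0776 to 0.0844 FPKM for FOXA2, for counting error only. Of the 9 factors, 6 were tested and these 3 were not, since they did not pass the filter.

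**Figure D1:**
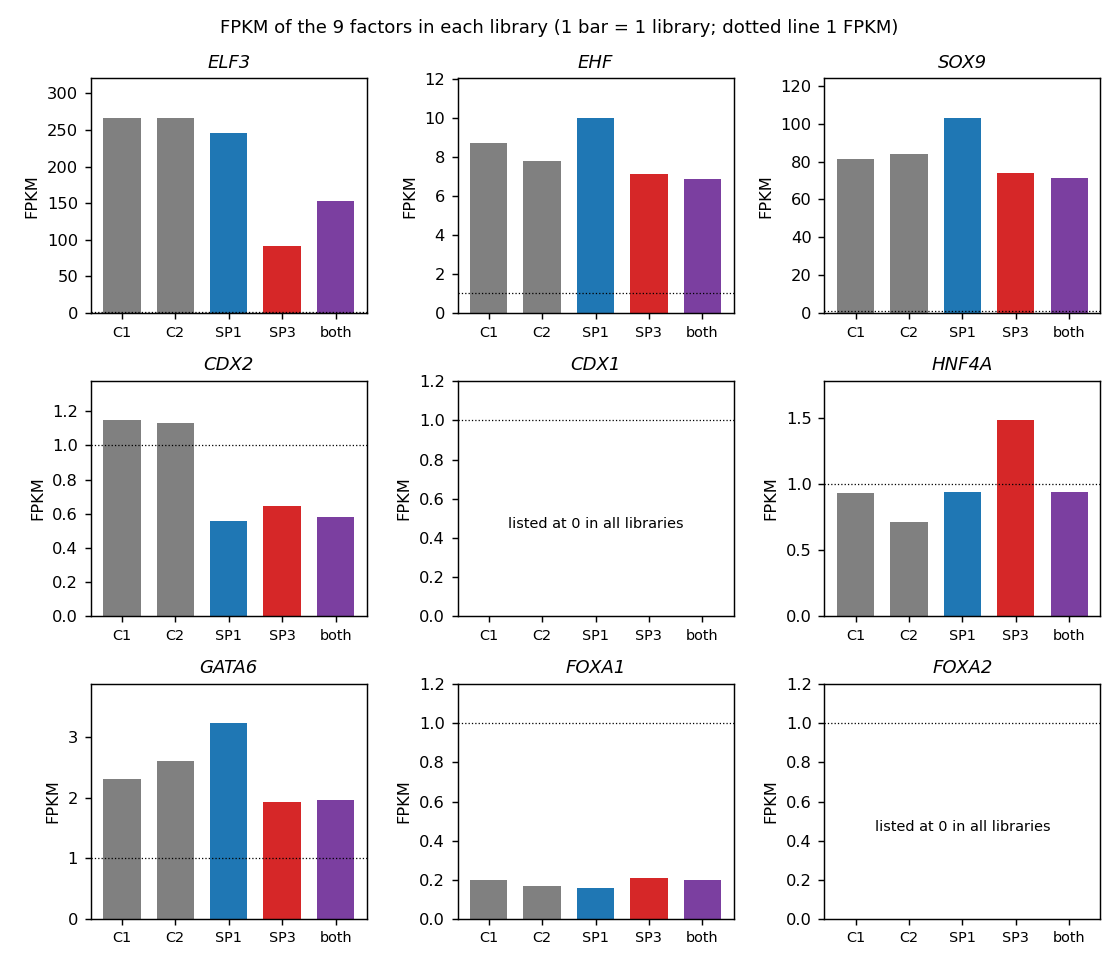
FPKM (vertical axis, from 0, with its own scale in each panel) of the 9 factors in control 1 (C1), control 2 (C2) and the SP1 siRNA, SP3 siRNA and double knockdown (both) libraries, 1 bar per library with no error bars. ELF3 was lowest with the SP3 siRNA at 90.9 FPKM, CDX2 lay under 1 FPKM in the 3 knockdown libraries, and CDX1, FOXA1 and FOXA2 stayed under 1 FPKM in all 5.

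Seen among 73 intestinal, epithelial and ETS factors, ELF3 and SOX9 held the first and the second place by control level. Next came HES1 (76.6 FPKM), a repressor downstream of Notch, ELK3 (64.7 FPKM), an ETS factor, and KLF4 (57.0 FPKM), a factor of differentiated epithelium. The gap between SOX9 (82.6 ± 1.73 FPKM, SD, n = 2) and HES1 was smaller than the difference of HES1 between the 2 controls, at 72.4 and 80.8 FPKM, so these neighbours in the order did not differ beyond their spread. EHF came at place 20, GATA6 at 34, CDX2 at 43, HNF4A at 45, FOXA1 at 52, and CDX1 and FOXA2 were among those at 0 in the controls. Control levels of the lower members were 2.46 ± 0.201 FPKM for GATA6, 1.14 ± 0.0111 FPKM for CDX2 and 0.818 ± 0.155 FPKM for HNF4A.

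**Figure D2:**
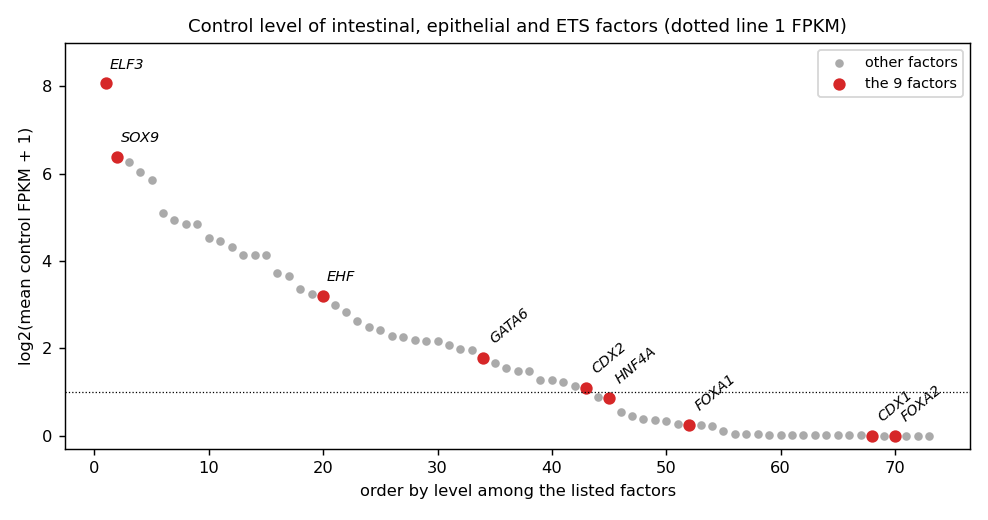
Mean control level on a log2(FPKM + 1) scale (vertical axis) against the order by level (horizontal axis) for 73 factors, each point 1 gene averaged over the 2 controls, with the 9 factors in red. ELF3 and SOX9 lead the order, and CDX1 and FOXA2 lie at 0.

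ELF3 changed most. With the SP3 siRNA it fell to 34.1% of the control level (95% interval 33.0 to 35.1% from recovered reads, exact binomial, counting error only), a log2 difference of -1.54 ± 0.06 (SE, limma adjusted p = 1.44e-11). In the double knockdown it stood at 57.3% (55.8 to 58.7%), with a difference of -0.80 ± 0.06 (adjusted p = 1.04e-08). With the SP1 siRNA alone it was at 92.3% (90.3 to 94.2%), a difference of -0.12 ± 0.06 that did not pass the threshold (adjusted p = 0.0795) and that passed it at -0.24 when the libraries were scaled by median ratio (adjusted p = 0.00993). Without the filter on low values both falls kept their size but passed only narrowly. The limma adjusted p was then 0.0471 with the SP3 siRNA and 0.0418 in the double knockdown. All 3 knockdown libraries lay below both controls, whose values did not differ to 3 digits. In the additive model, which assumes no interaction, the SE for either siRNA was 0.20, against 0.06 with 1 mean per group. The fall with the SP3 siRNA was called by the additive model as well (-1.18, adjusted p = 0.0291), but that in the double knockdown was not (-0.92, adjusted p = 0.0667), and the SP1 term there was 0.25 with an adjusted p of 0.405.

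The double knockdown held more ELF3 than the SP3 siRNA library did, 168% of it (162 to 174%). The interaction (the double knockdown's difference less both single differences) was 0.86 ± 0.08 for ELF3 (limma adjusted p = 2.22e-06), against 39.5% of all tested genes called for an interaction in either direction (18.5% higher, 21.0% lower). Without a filter on low values limma called no gene for the interaction, although 5375 of them had an unadjusted p under 0.05, and ELF3 then had an adjusted p of 0.112. The ELF3 interaction was 0.86 with and without the filter. The prior degrees of freedom, limma's weight for the spread shared over genes, were 13.95 with the filter and 1.03 without it. SP3 itself was at 123% (110 to 138%) in the double knockdown relative to the SP3 siRNA library. The part of this higher SP3 level in the ELF3 difference was not tested.

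Since SP1 and SP3 bind GC boxes, the 250 bases before the annotated start of each member were searched for the GC box core GGGCGG and the GT box core GGGTGG on both strands (RefSeq, GRCh38.p14). The table held 8 starts for 6 of the members, ELF3, EHF, CDX2, HNF4A, GATA6 and FOXA1, and none for CDX1, FOXA2 and SOX9. Of 35116 starts over all genes, 42.6% had a GC box core and 31.3% a GT box core in this window. Among the 8 starts, 3 had a GC box core (both of HNF4A and that of FOXA1) and 4 a GT box core (both of HNF4A, 1 of the 2 of EHF and that of GATA6). The window of ELF3, the member with the steepest fall, is shown because it held neither core. It lies at chr1:202010337-202010586 on the + strand, has a GC content of 58.4% beside a median of 58.0% over all starts, and has no capitals, which mark matches here and below.
ELF3: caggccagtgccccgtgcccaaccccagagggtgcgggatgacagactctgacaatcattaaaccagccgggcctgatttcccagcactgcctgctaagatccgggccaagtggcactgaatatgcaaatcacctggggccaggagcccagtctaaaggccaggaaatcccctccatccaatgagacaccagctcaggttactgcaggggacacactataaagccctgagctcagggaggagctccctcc

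A match describes the letters before an annotated start and shows no binding, and no match says only that these letters are not in the window.

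EHF, the relative of ELF3, moved less. It was at 122% of control (113 to 131%) with the SP1 siRNA, a log2 difference of 0.26 ± 0.10 (limma adjusted p = 0.0328). With the SP3 siRNA it was at 86.7% (80.1 to 93.8%) and in the double knockdown at 83.6% (77.0 to 90.7%), with differences of -0.18 ± 0.10 (adjusted p = 0.127) and -0.23 ± 0.10 (adjusted p = 0.0590) that did not pass. The latter passed with median-ratio scaling (-0.25, adjusted p = 0.0284) and when genes averaging under 5 FPKM were left out (adjusted p = 0.0420). The SP1 siRNA value lay above both controls and the other knockdown values below both, but the controls themselves differed by -0.14 on this scale. The rise was not called with median-ratio scaling (0.15, adjusted p = 0.169) or in the additive model (0.13, adjusted p = 0.496). Set directly against the SP1 siRNA, EHF differed with the SP3 siRNA by -0.44 ± 0.11 (adjusted p = 0.00379), a call lost in the additive model (adjusted p = 0.179) and without the filter on low values (0.121). ELF3 differed in the same contrast by -1.43 ± 0.06 (adjusted p = 1.41e-10), also in the additive model (0.0493) and, narrowly, without the filter (0.0457).

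SOX9, the crypt base factor, was at 125% of control (121 to 129%) with the SP1 siRNA, a log2 difference of 0.32 ± 0.06 (limma adjusted p = 0.000306). It was at 89.7% (86.6 to 92.9%) with the SP3 siRNA and at 86.6% (83.5 to 89.8%) in the double knockdown, with differences of -0.15 ± 0.06 (adjusted p = 0.0386) and -0.20 ± 0.06 (adjusted p = 0.00884). The SP1 siRNA library was thus above both controls and the other 2 knockdown libraries below both. The 3 differences were not called in the additive model, at 0.16, -0.31 and -0.15 (adjusted p = 0.385, 0.136 and 0.514), and that with the SP3 siRNA was not called with median-ratio scaling (-0.11, adjusted p = 0.212). The interaction for SOX9 was -0.37 ± 0.09 (adjusted p = 0.00585): the SP1 siRNA went with a higher level without the SP3 siRNA, and with SP3 siRNA present the level was 96.6% (92.6 to 101%) of that with the SP3 siRNA alone.

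CDX2, the intestinal homeobox factor, was lower in all 3 knockdown libraries. From 82 reads in each control it went to 39 reads with the SP1 siRNA, 47 with the SP3 siRNA and 39 in the double knockdown, which were 48.9% (33.6 to 69.7%), 56.7% (40.1 to 78.8%) and 51.2% (35.1 to 72.9%) of control. The log2 differences were -0.46 ± 0.14, -0.38 ± 0.14 and -0.43 ± 0.14 (limma adjusted p = 0.00845, 0.0259 and 0.0122). The 3 intervals overlapped one another and excluded 100%. CDX2 passed the low-value filter through the controls alone, the group where it was high, so these 3 differences carry that limit. The additive model called none of them, at -0.29, -0.21 and -0.49 (adjusted p = 0.227, 0.356 and 0.124). CDX2 and ELF3 lay below both controls in all 3 knockdown libraries, beside 24.3% of all tested genes, and HNF4A lay above both in all 3, beside 26.9%. Taken singly, 4 of the 6 tested members lay above both controls with the SP1 siRNA and 2 below, beside 51.2% and 41.8% of all genes; with the SP3 siRNA 1 lay above and 5 below, beside 44.7% and 47.6%, and in the double knockdown likewise, beside 47.1% and 45.5%.

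The 8 leukocyte markers other than CD68, which was set aside after its values were seen, were also lower in these 3 libraries, while the sum with CD68 was higher than in the controls with the SP3 siRNA (94.2 FPKM). The part of these markers in the CDX2 difference was not tested. The CDX2 window, shown as the other called member without a match, is at chr13:27969316-27969565 on the - strand, with a GC content of 45.2%.
CDX2: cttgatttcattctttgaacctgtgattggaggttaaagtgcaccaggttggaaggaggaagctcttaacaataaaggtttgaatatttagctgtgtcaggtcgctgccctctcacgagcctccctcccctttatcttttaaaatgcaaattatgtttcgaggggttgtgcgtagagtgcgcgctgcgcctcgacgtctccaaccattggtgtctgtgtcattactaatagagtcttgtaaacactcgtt

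HNF4A, the nuclear receptor of enterocytes, was highest with the SP3 siRNA, where 130 reads stood against 80 and 62 in the controls, 181% of control (142 to 231%). The log2 difference was 0.45 ± 0.14 (limma adjusted p = 0.0114), and it was not called in the additive model (0.26, adjusted p = 0.290). With the SP1 siRNA and in the double knockdown HNF4A was at 114% (85.8 to 152%) and 115% (86.0 to 153%), differences of 0.09 and 0.10 that did not pass (adjusted p = 0.574 and 0.563). Those 2 libraries, at 0.935 and 0.941 FPKM, were next to control 1 at 0.928 FPKM, and control 2 was lowest at 0.709 FPKM. HNF4A passed the low-value filter through the SP3 siRNA library alone, where it was high, so its call there carries that limit. The windows of both HNF4A starts are shown because each held both cores. The first lies at chr20:44355449-44355698 and the second at chr20:44400989-44401238, both on the + strand, and capitals mark either core or its reverse complement.
HNF4A start 1: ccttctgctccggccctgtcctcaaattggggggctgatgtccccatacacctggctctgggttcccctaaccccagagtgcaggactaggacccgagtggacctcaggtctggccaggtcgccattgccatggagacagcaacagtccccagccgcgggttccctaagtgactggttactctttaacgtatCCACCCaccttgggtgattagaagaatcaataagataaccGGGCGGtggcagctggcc
HNF4A start 2: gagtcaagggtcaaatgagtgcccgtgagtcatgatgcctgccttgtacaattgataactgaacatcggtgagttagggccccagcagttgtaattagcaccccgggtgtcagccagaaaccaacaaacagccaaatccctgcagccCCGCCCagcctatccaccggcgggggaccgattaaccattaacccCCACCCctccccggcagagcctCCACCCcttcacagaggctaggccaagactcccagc

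Counted back from the start, the GC box core begins at -18 for the first start and, on the reverse strand, at -103 for the second. Which of these starts HCT116 cells use cannot be read from gene-level values.

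GATA6, a factor of crypt cells, was highest with the SP1 siRNA, at 3.23 FPKM, and its controls stood at 2.31 and 2.60 FPKM. It was at 131% of control (109 to 158%) with the SP1 siRNA, a log2 difference of 0.29 ± 0.12 just inside the threshold (limma adjusted p = 0.0497). With the SP3 siRNA it was at 78.3% (62.6 to 97.4%) and in the double knockdown at 80.0% (63.6 to 100%), differences of -0.24 and -0.22 that did not pass (adjusted p = 0.104 and 0.136). The rise was not called with a pseudocount of 0.1 (0.38, adjusted p = 0.0636), with median-ratio scaling (0.20, adjusted p = 0.150) or in the additive model (0.18, adjusted p = 0.357). FOXA1 was at 85.7%, 115% and 108% of control with the SP1 siRNA, the SP3 siRNA and both, with intervals that all held 100% and the widest of which ran from 55.2 to 232%, so a difference was not detectable at this depth.

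**Figure D3:**
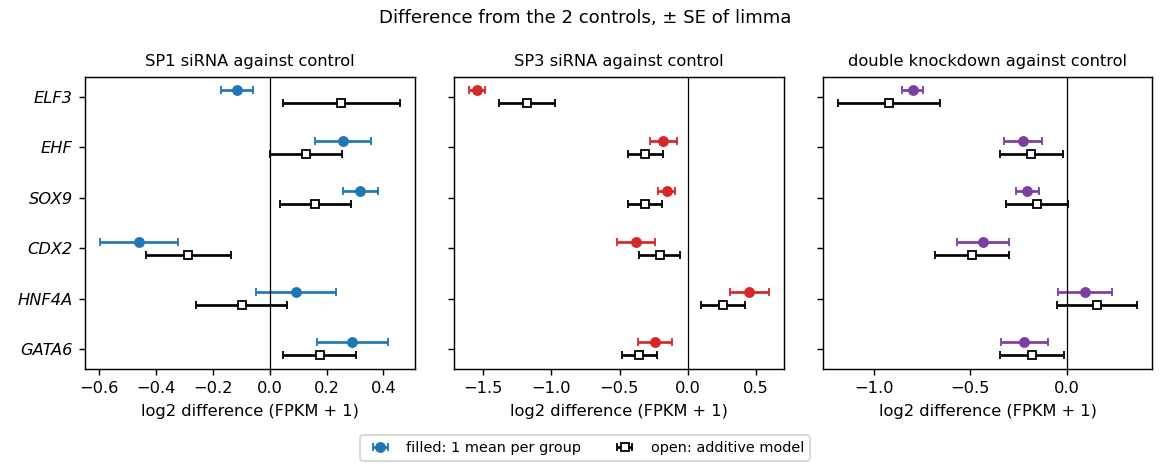
Difference from the mean of the 2 controls on the log2(FPKM + 1) scale (horizontal axis, a scale of its own in each panel) for the 6 tested factors, with the SE of limma as error bars; filled points have 1 mean per group, open squares the additive model. ELF3 lies at -1.54 with the SP3 siRNA and -0.80 in the double knockdown, and EHF, SOX9 and GATA6 lie above 0 with the SP1 siRNA and below 0 in the other 2 panels.

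Counted over the members, limma called 4 of the 6 with the SP1 siRNA, 3 higher and 1 lower, beside 65.4% of all tested genes called (36.5% higher, 28.9% lower). With the SP3 siRNA it called 4, 1 higher and 3 lower, beside 61.6% (29.6% higher, 32.0% lower). In the double knockdown it called 3, all lower, beside 63.0% (31.8% higher, 31.1% lower). These shares are near the background, so the counts alone show nothing about the members. The counts include the calls of CDX2 and HNF4A, which passed the low-value filter through the controls alone and through the SP3 siRNA alone. In the additive model 0, 1 and 0 members were called. Beside them stood 7.66% of all genes for the SP1 siRNA (3.68% higher, 3.98% lower), 15.4% for the SP3 siRNA (6.69% and 8.68%) and 16.8% for the double knockdown (7.95% and 8.84%), and 0, 2 and 2 members had an unadjusted p under 0.05. Without the filter on low values the calls of EHF and GATA6 with the SP1 siRNA (adjusted p = 0.188 and 0.162), of CDX2, HNF4A and SOX9 with the SP3 siRNA (0.0530, 0.127 and 0.105) and of SOX9 in the double knockdown (0.0750) were lost. The members' median differences were 0.18, -0.21 and -0.22, beside 0.06, -0.02 and 0.01 for all tested genes.

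In the direct comparison of the SP3 with the SP1 siRNA, 4 of the 6 members were lower and none was called higher, beside 62.7% of all genes called (36.2% lower, 26.5% higher). These were ELF3, EHF, SOX9 at -0.47 ± 0.07 (limma adjusted p = 3.47e-05) and GATA6 at -0.53 ± 0.14 (adjusted p = 0.00449). HNF4A differed by 0.36 ± 0.16 (adjusted p = 0.0663), which passed as higher with median-ratio scaling (0.45, adjusted p = 0.0209), and CDX2 by 0.08 ± 0.16 (adjusted p = 0.679). The members' median was -0.46 beside -0.09 for all genes. In the additive model ELF3 alone was called there (-1.43, adjusted p = 0.0493), beside 10.9% of all genes (4.97% higher, 5.89% lower), and EHF, SOX9 and GATA6 were not (adjusted p = 0.179, 0.150 and 0.126). Without the filter EHF and GATA6 lost the call (adjusted p = 0.121 and 0.0990).

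The genes with patterns most like those of the 3 abundant members were sought among 7126 genes averaging 5 FPKM or more, by the Euclidean distance over the 3 log2 differences from the control mean. For ELF3 they were RAB20 (distance 0.20), a small GTPase, NINJ1 (0.29), a cell surface protein of membrane rupture, and SNN (0.29). RAB20 went from 15.1 and 14.6 FPKM in the controls to 12.7 FPKM with the SP1 siRNA, 3.99 FPKM with the SP3 siRNA and 7.34 FPKM in the double knockdown. The nearest to EHF were MANF (0.04), BRAF (0.05) and DNAJB11 (0.06), and the nearest to SOX9 were YDJC (0.04), KIF21A (0.05) and BRAF (0.05). The nearest genes were farther from ELF3 than from EHF and SOX9. The distance was not scaled by the size of the change, which was largest for ELF3 with the SP3 siRNA. It therefore does not tell whether the ELF3 pattern is rarer.

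Other factors and genes of the same networks were taken as lists. Their counts of called genes are to be read beside 65.4%, 61.6% and 63.0% of all tested genes called with the SP1 siRNA, the SP3 siRNA and both, and their medians beside 0.06, -0.02 and 0.01 over all tested genes. Their counts of genes under 1 FPKM in every library stand beside 41.5% of all genes. Of 26 other intestinal factors, 15 stayed under 1 FPKM in every library and 11 were tested. Limma called 4 higher and 2 lower with the SP1 siRNA, 4 and 3 with the SP3 siRNA, and 3 and 4 in the double knockdown, with medians of -0.03, 0.03 and 0.19. These 6, 7 and 7 of 11 are near the share over all genes. HES1 fell with the SP1 siRNA, from 72.4 and 80.8 to 44.2 FPKM (-0.78 ± 0.07, adjusted p = 2.02e-07), a call that the additive model did not make (-0.50, adjusted p = 0.112). It was also called lower with the SP3 siRNA (-0.275) and in the double knockdown (-0.41), in neither case by the additive model. TCF7L2, the WNT effector TCF4, rose with the SP3 siRNA, from 33.6 and 32.8 to 51.3 FPKM (0.61 ± 0.07, adjusted p = 1.67e-06), also in the additive model (0.51, adjusted p = 0.0429). ONECUT2 (0.60) and KLF4 (0.27) rose with the SP1 siRNA, but were not called in the additive model (adjusted p = 0.0674 and 0.475).

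Of 17 other epithelial factors, which include repressors of the epithelial state such as SNAI1, 13 were tested. Limma called 3 higher and 3 lower with either single siRNA, and 3 higher and 6 lower in the double knockdown, with medians of -0.07, -0.09 and -0.33. KLF5, a Krüppel-like factor of proliferating crypt cells, went the other way from ELF3 with the SP3 siRNA, from 26.9 and 28.3 FPKM in the controls to 76.4 FPKM (1.44 ± 0.07, adjusted p = 2.44e-10), and stood at 27.7 FPKM with the SP1 siRNA and at 48.2 FPKM in the double knockdown (0.78 ± 0.07, adjusted p = 1.36e-07). For KLF5 as for ELF3, the SP1 siRNA library was close to the controls and the double knockdown lay between the controls and the SP3 siRNA. Its additive value passed with the SP3 siRNA (1.15, adjusted p = 0.0240) and missed the threshold in the double knockdown (0.88, adjusted p = 0.0546). TFAP2C was lower in the double knockdown (-0.91 ± 0.10), SNAI1 higher with the SP3 siRNA (0.51 ± 0.09), GRHL1 higher with the SP1 siRNA (0.53 ± 0.10) and SOX4 lower with the SP3 siRNA (-0.23) and in the double knockdown (-0.50), none of them called in the additive model (adjusted p = 0.0535 to 0.119).

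Among 21 other ETS factors 15 were tested, with 6 higher and 3 lower with the SP1 siRNA, 3 and 6 with the SP3 siRNA, and 6 and 5 in the double knockdown (medians 0.14, -0.12 and 0.09). These 9, 9 and 11 of 15 are near the 65.4%, 61.6% and 63.0% of all genes. ETS1 fell with the SP1 siRNA from 28.6 and 27.0 to 9.18 FPKM (-1.50 ± 0.08, limma adjusted p = 4.12e-10), was at 33.3 FPKM with the SP3 siRNA and fell to 16.1 FPKM in the double knockdown (-0.75 ± 0.08, adjusted p = 6.77e-07). Both falls held in the additive model (adjusted p = 0.0377 and 0.0462). ETS1 and ELF3, members of 1 family, thus fell in different single knockdowns, and in the direct comparison of the SP3 with the SP1 siRNA they stood at 1.75 ± 0.09 and -1.43 ± 0.06. ETV3 fell in all 3 (-0.91, -0.60 and -0.98), ELK1 rose with the SP3 siRNA from 16.3 and 17.1 to 26.8 FPKM (0.65) and in the double knockdown (0.56), and ERF rose with the SP1 siRNA (0.71). In the additive model the ELK1 and ERF calls held, and of those of ETV3 only that in the double knockdown did (adjusted p = 0.0333). ELK3 with the SP1 siRNA (0.41), ELF4 (-0.56) and ELK4 (0.38) with the SP3 siRNA and ETV4 in the double knockdown (0.44) were called only in the fit with 1 mean per group.

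**Figure D4:**
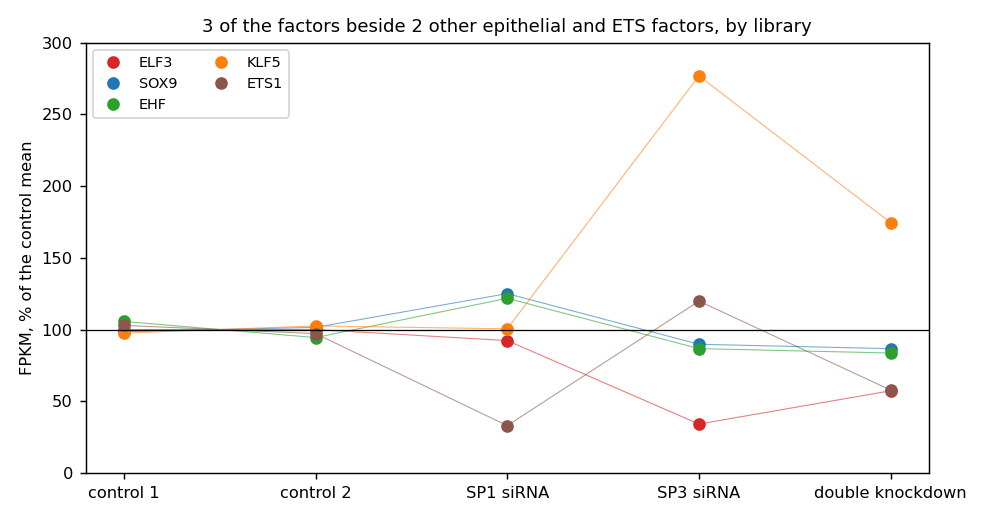
FPKM as a percentage of the mean of the 2 controls (vertical axis) in each of the 5 libraries (horizontal axis) for ELF3, SOX9 and EHF and for 2 factors of the lists, KLF5 and ETS1; each point is 1 library and the lines only join the points of a gene. ELF3 is lowest and KLF5 highest with the SP3 siRNA, and ETS1 is lowest with the SP1 siRNA.

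Genes of the cell types these factors serve were mostly under 1 FPKM. Of 30 enterocyte genes 27 stayed under 1 FPKM in every library, among them FABP1, LGALS4, APOB and MUC13, and the 3 that were tested, all named here after their values were seen, were the carbonic anhydrase CA2, the membrane linker EZR and the peptidase DPP4. All 3 fell with the SP3 siRNA, beside 32.0% of all tested genes called lower. With so few genes tested, this count says little about the list. CA2 went from 24.9 and 23.6 to 4.89 FPKM (-2.10 ± 0.09, limma adjusted p = 5.9e-11), EZR from 827 and 767 to 548 FPKM (-0.54 ± 0.06) and DPP4 from 4.87 and 5.11 to 2.25 FPKM (-0.88 ± 0.11). The calls of EZR and DPP4 held in the additive model (adjusted p = 0.0437 and 0.0407) and that of CA2 did not (-1.38, adjusted p = 0.0631). With the SP1 siRNA CA2 fell (-1.41) while EZR (0.23) and DPP4 (0.49) rose, and none of these held in the additive model (adjusted p = 0.0523 to 0.236). In the double knockdown CA2 alone was called (-1.84, additive adjusted p = 0.0459).

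Goblet and enteroendocrine genes numbered 12, of which 9 stayed under 1 FPKM. The granule protein gene CHGB, named after its values were seen, was at 0 and 0.0237 FPKM in the controls and 0.0246 FPKM with the SP1 siRNA, and reached 1.18 FPKM with the SP3 siRNA and 1.08 FPKM in the double knockdown, so it passed the filter only through those libraries. FCGBP, of goblet cells, reached 2.51 FPKM with the SP1 siRNA, from 0.577 and 0.711 FPKM, and the peptide hormone PYY stayed at 0.592 to 1.02 FPKM. Of 13 stem cell genes 8 were tested, with 6 higher and none lower with the SP1 siRNA, 1 higher and 5 lower with the SP3 siRNA, and 2 and 2 in the double knockdown (medians 0.28, -0.27 and -0.06). Over all tested genes 36.5% were higher and 28.9% lower with the SP1 siRNA, 29.6% and 32.0% with the SP3 siRNA, and 31.8% and 31.1% in the double knockdown, with medians of 0.06, -0.02 and 0.01. The genes LGR5, OLFM4, SMOC2, ASCL2 and TNFRSF19 of this list stayed under 1 FPKM in every library. Like SOX9, the stem cell markers CD44 and PROM1 rose with the SP1 siRNA (0.28 and 0.27) and fell with the SP3 siRNA (-0.19 and -0.34). RNF43, a brake on WNT receptors, rose with the SP1 siRNA (0.48) and in the double knockdown (0.54). Unlike SOX9, EPHB2, named after its values were seen, rose with the SP1 siRNA (1.28) and with the SP3 siRNA (0.31), neither called in the additive model. None of these calls of CD44, PROM1 and RNF43 held in the additive model (adjusted p = 0.0570 to 0.623). Against the controls, the 1 call of this list that did was LRIG1, a transmembrane brake on growth factor receptors named after its values were seen. LRIG1 went from 2.52 and 2.72 to 1.06 FPKM with the SP3 siRNA (-0.81 ± 0.13, limma adjusted p = 4.85e-05, additive adjusted p = 0.0365). CD44 in the double knockdown, at -0.34, was not called in the additive model either (adjusted p = 0.273). In the direct comparison of the SP3 with the SP1 siRNA, ZNRF3, also named after its values were seen, was called lower in both models (-1.03).

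All 21 epithelial adhesion and splicing genes were tested. Limma called 4 higher and 10 lower with the SP1 siRNA, 9 and 8 with the SP3 siRNA, and 9 and 8 in the double knockdown (medians -0.17, 0.09 and -0.09), beside 65.4%, 61.6% and 63.0% of all genes called. CLDN4, a tight junction protein, fell from 630 and 625 FPKM to 221, 224 and 181 FPKM with the SP1 siRNA, the SP3 siRNA and both (-1.50, -1.48 and -1.79), and the additive model called it in the double knockdown alone (adjusted p = 0.0741, 0.0662 and 0.0323). The keratin KRT18 fell to 408, 284 and 153 FPKM from 750 and 740 FPKM, called in both models in all 3 comparisons. The junction protein JUP rose with the SP3 siRNA from 141 and 140 FPKM to 246 FPKM (0.80 ± 0.06), also in the additive model (adjusted p = 0.0211). The protease ST14 fell with the SP1 siRNA (-0.84, additive adjusted p = 0.0483) and PRSS8 in the double knockdown (-0.83, additive adjusted p = 0.0312), while LAD1 rose with the SP1 siRNA (1.25, additive adjusted p = 0.0616). With 1 mean per group ST14 and PRSS8 were called lower, and LAD1 higher, in all 3 comparisons. LAD1 was at 0.77 with the SP3 siRNA and at 1.18 in the double knockdown, the 1 comparison where the additive model called it.

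Of 14 cofactors and relatives of SOX9 and the FOXA proteins, 8 were tested, with 3 higher and 1 lower with the SP1 siRNA, 1 and 3 with the SP3 siRNA, and 2 and 2 in the double knockdown (medians 0.02, -0.08 and -0.04), beside the same shares of all genes. The corepressor TLE1 rose with the SP1 siRNA (0.31) and fell with the SP3 siRNA (-0.21), and CTNNB1, which encodes beta-catenin, rose with the SP3 siRNA (0.25) and in the double knockdown (0.28). EP300 fell with the SP1 siRNA (-0.22) and in the double knockdown (-0.27). The additive model called none of the genes of this list in any of these comparisons, with adjusted p of 0.0921 to 0.218 for those named.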

How the data were processed

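Transcript levels of HCT116 cells were measured by RNA sequencing in 5 libraries. The authors deposited 1 table of FPKM per library, with a gene symbol per row. The tools named, per the submitters' processing notes and without their roles, are HTSeq 0.9.1, Cufflinks 2.2.1, HISAT2 2.0.5 and Trimmomatic 0.36. Build and annotation: not given in the sources used here. Rows whose symbol was listed more than once (4) were left out. Whether strand was kept is not known, so overlapping and antisense genes cannot be told apart.

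The deposited FPKM values kept steps of whole reads. Depth was derived from 158 genes with a single transcript in GENCODE 29, and 99.32% of the 17121 genes with any signal came out as whole reads (tolerance 0.02), as did 0% of 300 genes whose values were jittered by 1%. The recovered reads are lower limits, since the smallest length that fits was taken. They served for the read numbers given, the percentages of control, their intervals and the floors, and not for the fit. A percentage of control does not depend on that length. The fit was limma 3.58.1 (R 4.3.3, trend on mean level) on log2(FPKM + 1), keeping genes that reached 1 FPKM in any library, with 1 mean per group, 1 residual and 13.95 prior degrees of freedom. Low genes are understated on this scale. The test was first checked on simulated data with a fixed spread between libraries and changes in the SP1 siRNA library alone. Such a check cannot tell how far separate cultures differ. Named were the 9 factors, up to 4 genes per list and comparison with the smallest p among those called (mean of at least 5 FPKM), and 3 genes of nearest pattern per abundant member; 2 genes that this rule names are not reported here. Members and lists were chosen with earlier results of these data known. A planned comparison of related proteins was not made, since no protein sequences were used here.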

Additional observations from a re-analysis of the deposited data

Results flagged for a closer look

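The effect of the SP3 siRNA differed without and with the SP1 siRNA for 2 of the 6 tested factors, by limma's test of the interaction, beside 39.5% of all tested genes called, so the count itself is no result about them. For ELF3 the interaction was 0.86 on the log2(FPKM + 1) scale (adjusted p = 2.22e-06): the level fell by 1.54 without the SP1 siRNA and by 0.68 with it. For SOX9 it was -0.37 (adjusted p = 0.00585): the difference was -0.15 without the SP1 siRNA and -0.52 with it. Each rests on 1 library per knockdown group, and neither was called without a filter on low values (adjusted p = 0.112 and 0.118).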

How the results depend on the processing

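No paired analysis was possible because the knockdown groups have 1 library each and carry no replicate number. Leaving out either control left 1 library per group and no residual spread, so values without a test were given; each member's differences from the controls and interaction kept their sign, that of EHF with the SP1 siRNA ranging from 0.19 to 0.33 and that of HNF4A there from 0.01 to 0.18. The additive model called 898, 1802, 1968 and 1274 genes for the SP1 siRNA, SP3 siRNA, double knockdown and direct comparisons, and 0, 1, 0 and 1 members, against 7665, 7222, 7383 and 7347 genes and 4, 4, 3 and 4 members; it reversed ELF3 (0.25) and HNF4A (-0.10) for the SP1 siRNA, neither of them called in either fit. With no filter limma called 4179, 2099, 3154 and 2635 genes and 2, 1, 2 and 2 members, and for the interaction 0 genes and 0 members, against 4629 and 2, although 5375 genes and 3 members had an unadjusted p under 0.05. A mean of at least 5 FPKM left 5108 genes for the SP1 siRNA and 2 of 3 members for each single siRNA, fewer being tested. Median-ratio scaling moved the median of all genes from 0.06 to -0.04 for the SP1 siRNA and from -0.09 to 0.05 for the direct comparison, and the split of calls from 4282 higher and 3383 lower to 3458 and 4206, and from 3103 and 4244 to 4099 and 3220. A threshold of 2 FPKM put 5 members under it in every library, in place of 3. The prior degrees of freedom were 13.95 in the fit with 1 mean per group, 1.03 without the filter and 3.3 in the additive model. Without the filter each member tested in the main fit kept its log2 differences. The additive model assumes no interaction, and with the SP1 siRNA the ELF3 level lay below both controls and that of HNF4A above both. The cause of these changes was not tested. Depth limits FOXA1, CDX1 and FOXA2, at 0 to 14 reads.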
